A study of Mus musculus with 6 samples.

Results

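Multiciliated cells carry many motile cilia, and the regulators that switch a cell to this state were followed here in mouse neural stem cells with a reduced level of Mina53 (gene symbol Riox2), a JmjC-domain oxygenase. The genes were chosen by name from a list of 9, namely Foxj1, Mcidas, Gmnc, Ccno, Deup1, Rfx2, Rfx3, Rfx4 and Trp73, with earlier results of these libraries known, so their own group differences are given as a description. Where a symbol had several entries the one selected on the highest mean level over the 6 libraries would have been used, but each symbol found had 1. Of the 9 genes, 7 were measured among 25996 in all, and the expression of Gmnc and Deup1 is not analysed here.

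RNA was sequenced from 6 libraries of neural stem cells kept in proliferation, 3 with a control hairpin on a genotype labelled WT (shControl) and 3 with a hairpin against Mina53 (shMina53). Strain, age and the origin of the cells are not given in the sources used here, nor is the promoter that drove the hairpins. Nothing says that replicates were separate cultures, so p-values measure the spread between these libraries, which may be technical. Values are read counts that the authors scaled by 1 factor per library, called scaled counts, from 13753857 to 16811085 reads per library, and 1 read is worth 0.939 to 1.13 scaled counts. All 10 neural stem cell markers examined (such as Sox2, Nes and Slc1a3) were detected. As a check of the labels, the level of Riox2 was 290.4, 332.7 and 307.2 scaled counts with the control hairpin and 120.8, 124.6 and 120.9 with the Mina53 hairpin. Its exons share 1185 bases with Crybg3 on the opposite strand.

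In the known order of events, the geminin-related proteins GEMC1 (Gmnc) and multicilin (Mcidas) bind E2F4 or E2F5 with a DP partner and turn on the multiciliation genes, among them Trp73, Ccno, Deup1, Foxj1 and Rfx factors. Cyclin O (Ccno) and DEUP1 serve the mass production of centrioles that become basal bodies, while FOXJ1 and the RFX factors drive genes of the cilium itself. In the brain this program builds the ependymal cells of the ventricle wall, which arise from radial glia, the neural stem cells of the embryo.

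Promoters of 4 members are shown because 2 belong to members with a higher level in shMina53 (Rfx2 and Rfx4) and the other 2 to the neighbouring genes Mcidas and Ccno; the choice and the words searched were made after the values were seen. They come from RefSeq windows on GRCm38.p6 of 250 bases before the start of transcription. By symbol 8 of the 9 members had at least 1 window. None was found for Foxj1, so its promoter was not searched. Sequences are printed only where GENCODE M21 annotates no exon, whereas motifs were searched in the whole 250 bases, for members and for all other windows. Capitals mark GTTGCC, the core of the site that RFX proteins bind.
Rfx2 (chr17:56831014-56831258, minus strand): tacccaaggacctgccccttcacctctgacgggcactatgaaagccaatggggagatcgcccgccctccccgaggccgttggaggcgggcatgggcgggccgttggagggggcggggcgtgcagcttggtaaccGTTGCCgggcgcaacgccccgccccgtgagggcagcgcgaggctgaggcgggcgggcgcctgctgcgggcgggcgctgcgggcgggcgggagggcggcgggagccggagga
Rfx4 (chr10:84755798-84756047, plus strand): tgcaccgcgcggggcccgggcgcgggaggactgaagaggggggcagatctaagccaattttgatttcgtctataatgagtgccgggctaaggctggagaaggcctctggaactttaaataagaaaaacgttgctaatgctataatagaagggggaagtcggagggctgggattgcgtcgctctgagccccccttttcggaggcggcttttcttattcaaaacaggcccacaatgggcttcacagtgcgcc
Ccno (chr13:112987552-112987801, plus strand): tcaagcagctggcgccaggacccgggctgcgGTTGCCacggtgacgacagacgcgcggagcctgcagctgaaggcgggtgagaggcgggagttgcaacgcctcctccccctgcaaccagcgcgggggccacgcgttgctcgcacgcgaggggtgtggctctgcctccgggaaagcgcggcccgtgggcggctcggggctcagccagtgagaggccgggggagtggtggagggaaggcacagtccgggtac
Mcidas (chr13:112993618-112993844, plus strand): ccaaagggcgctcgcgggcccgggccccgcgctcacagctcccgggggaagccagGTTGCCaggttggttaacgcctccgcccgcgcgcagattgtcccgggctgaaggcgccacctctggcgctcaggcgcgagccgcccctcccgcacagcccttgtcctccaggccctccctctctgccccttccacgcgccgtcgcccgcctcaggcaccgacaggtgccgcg

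The core was found in the plus orientation 116 to 111 bases before the start of Rfx2, 219 to 214 before that of Ccno and 195 to 190 before that of Mcidas. In all it was in 4 of the 12 windows of the members, the fourth being 1 of Deup1, in the reverse orientation 79 to 74 bases before the start. The windows of Rfx3, Rfx4, Gmnc and Trp73 hold none, on either strand. Over both strands 10.4% of all 32851 windows hold GTTGCC. A pair of GTTNCC and GGNAAC with 0 to 3 bases between them, the fuller RFX site, was in 0.67% of all windows and in 0 of the 12 windows of the members. The forkhead word TGTTTAC, of the kind FOXJ1 binds, was in 3.17% of all windows and in 0 of those 12. The E2F words TTCCCGC or TTGGCGC were in 5.62% of all windows and, among the members, in 1 of Trp73 and 1 of Deup1. Both windows of Trp73 lie wholly in bases that GENCODE M21 annotates as exon. These are matches of letters in a short window only.

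The effector transcription factors were measurable and mostly higher in shMina53, whereas Mcidas, Trp73 and Ccno had few or no reads in both groups. Rfx4, Foxj1 and Rfx2 stood 1.66, 1.78 and 2.16 times higher, Rfx3 was not called, and Mcidas, Ccno and Trp73 together had 32 reads in shControl and 51 in shMina53. In bulk RNA a change in the number of ciliated cells and a change in RNA per cell cannot be told apart. Differences are log2 fold changes, knockdown over control, on the log2(scaled count + 1) scale, with the standard error (SE) of a limma fit over 21500 genes. The adjusted p is two-sided, Benjamini-Hochberg over those genes, and a gene is called at an adjusted p under 0.05. Of the 6 members with enough reads to be tested (Mcidas was not), 3 were called higher, where 3.79% of all genes were, and 0 lower, where 4.47% were. At an unadjusted limma p under 0.05 likewise 0 were lower, and edgeR, which tested 4 of them, called the same 3 higher and 0 lower. Over all genes edgeR called 823 of 15082 higher and 978 lower, which also applies beside its counts below. For counts at an unadjusted p, here and below, no share over all genes is given, so they are a description only. In either direction limma called 8.26% of genes. The 3 shMina53 libraries lay wholly above the 3 shControl libraries for 4 of the 6, where they did for 3210 of all 21500 genes. In either direction 29.1% of all genes had no overlap. Since members were chosen with this comparison known, nothing is read from these shares.

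Foxj1 (ENSMUSG00000034227; mm10 chromosome 11, 116330704 to 116335399, minus strand) encodes the forkhead factor required for motile cilia. Libraries shControl 1, 2 and 3 held 216.9, 246.9 and 218.9 scaled counts of it, and shMina53 1, 2 and 3 held 452.4, 437 and 337.7. All shMina53 libraries lay above all shControl libraries, with shMina53 3 the lowest of its group. The means were 228 ± 16.8 and 409 ± 62.2 (SD, n = 3 each), a log2 fold change of 0.83 (SE 0.145; adjusted p = 0.00243, limma). It was called in each of the 6 fits without 1 library, with an adjusted p of at most 0.0264.

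Rfx4 (ENSMUSG00000020037; chromosome 10, 84756062 to 84906538, plus strand), an RFX factor of the developing brain, was the most abundant member. The control libraries held 2220.5, 2110.4 and 1903 scaled counts, and the knockdown libraries 3493, 3659 and 3188. The groups were far apart compared with their spread, and shMina53 3 was again the lowest of the knockdown. From 2078 ± 161 to 3446 ± 239 (SD, n = 3 each) the log2 fold change was 0.73 (SE 0.108; adjusted p = 0.00073, limma), and the call held without any 1 library, at an adjusted p of up to 0.0135.

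Rfx2 (ENSMUSG00000024206; chromosome 17, 56775897 to 56831013, minus strand), an RFX factor of motile cilia that works with FOXJ1, was low. The control libraries held 25.5, 37.2 and 32.9 scaled counts, from 101 reads, and the knockdown libraries 80.2, 83 and 49.7, from 207 reads. The groups did not overlap, but shMina53 3 lay nearer to the control libraries than to its own group. The means of 31.8 ± 5.93 and 71 ± 18.5 (SD, n = 3 each) gave the largest log2 fold change of the members called, 1.11 (SE 0.272; adjusted p = 0.0188, limma). Without shMina53 1 or shMina53 2 the gene was not called (adjusted p = 0.0872 and 0.12, limma).

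Rfx3 (ENSMUSG00000040929; chromosome 19, 27761721 to 28011166, minus strand), which serves both primary and motile cilia, stood at 1280.4, 1089 and 940.3 scaled counts in the control libraries, against 1222, 1329 and 1605 in the knockdown. Here the groups overlapped, and shMina53 3, low for the 3 members above, was the highest library. The log2 fold change of 0.33 (SE 0.132; adjusted p = 0.136, limma) was not called. Without shControl 1 it was 0.44 (adjusted p = 0.0283) and called. Rfx3 has 11034 bases of summed exons, and long genes were lower than short ones in shControl 3, by 0.44 on the log2 scale, and higher in shMina53 3, by 0.21. With that length trend removed from each library the log2 fold change of Rfx3 was 0.19, while those of Foxj1 and Rfx4 were 0.99 and 0.74 and both were called.

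**Figure D1:**
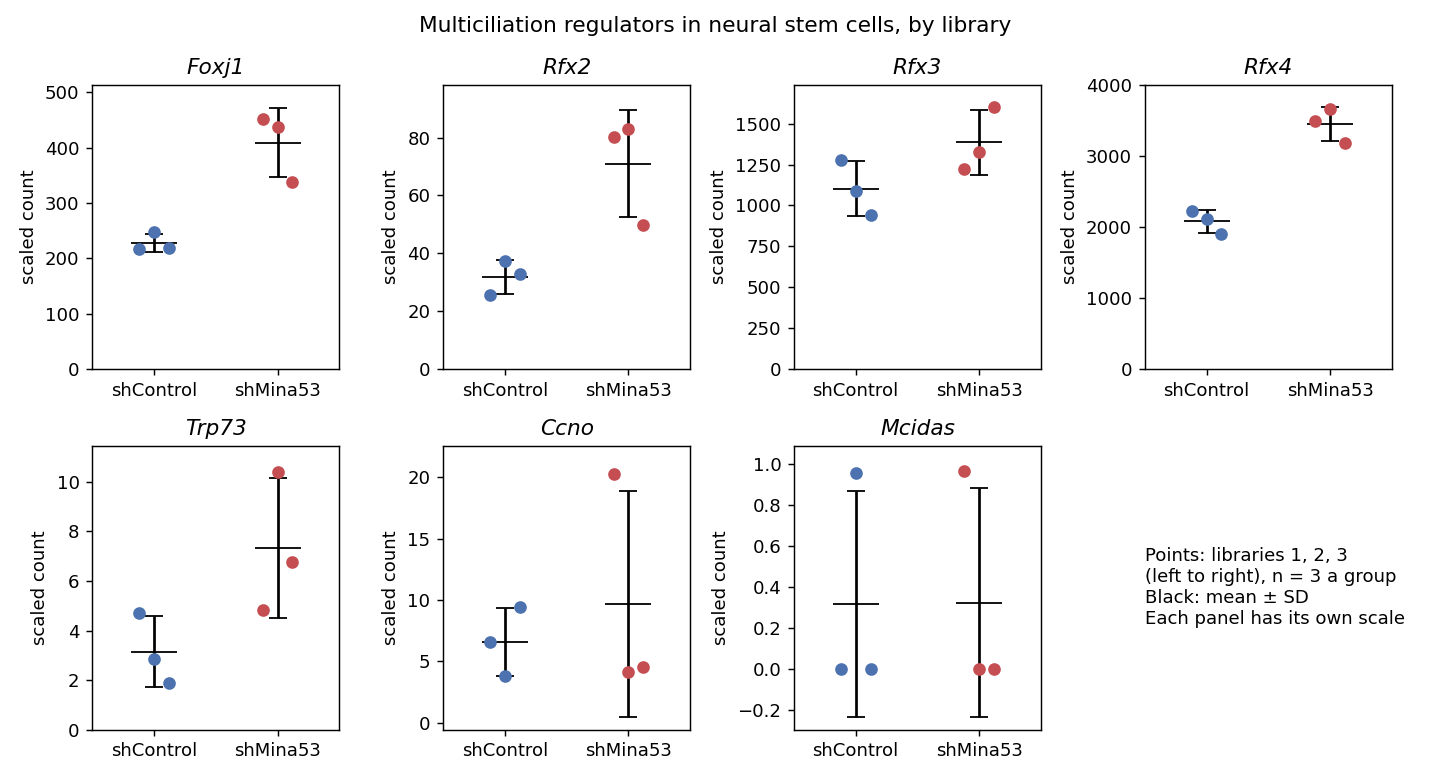
Scaled counts (vertical axes, each panel on its own scale) of the 7 measured members in 3 shControl and 3 shMina53 libraries; points are libraries and black marks the mean ± SD. The groups are apart for Foxj1, Rfx2 and Rfx4, overlap for Rfx3 and Ccno, and rest on a few reads for Trp73, Ccno and Mcidas.

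Trp73 (ENSMUSG00000029026; chromosome 4, 154056253 to 154140208, minus strand) encodes the p53 relative p73, an activator of Foxj1 and other multiciliation genes. Its reads numbered 5, 3 and 2 in the control libraries, against 5, 10 and 6 in the knockdown. After scaling the groups only just failed to overlap, at 4.71 scaled counts in shControl 1 against 4.83 in shMina53 1, which are 5 reads each. Corrected for the library factors, the ratio of summed reads was 2.31 (95% counting interval 1.04 to 5.5, exact, conditional on the sum). This interval leaves out the spread between libraries, so it cannot show a difference between the groups. The limma test, which includes that spread, did not call Trp73 (log2 fold change 1.01, SE 0.558; adjusted p = 0.291). Its exons share 280 bases with the antisense gene Trp73os, and the strand setting of the counting is not given in the sources used here.

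Ccno (ENSMUSG00000042417; chromosome 13, 112987802 to 112990777, plus strand) is the cyclin O gene, with 7, 4 and 10 reads in the control libraries against 21, 4 and 4 in the knockdown. Library shMina53 1 alone held 21 of the 29 knockdown reads, and the others lay within the control range. The ratio of summed reads, corrected in the same way, was 1.52 (95% counting interval 0.838 to 2.8). The log2 fold change of 0.22 (SE 0.591, adjusted p = 0.862, limma) became -0.44 without shMina53 1 and -0.07 without shControl 2. Mcidas (ENSMUSG00000074651; chromosome 13, 112993845 to 113000394, plus strand) lies 3067 bases downstream of Ccno. It had 1 read in shControl, in library 2, and 1 in shMina53, in library 1, so that a difference was not detectable at this depth. Counting intervals cover counting error only.

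Per kilobase of summed exons, Rfx4 was the highest member, at 439.9 ± 34.1 scaled counts per kb in the control and 729.5 ± 50.6 in the knockdown (SD, n = 3 each). Rfx3 and Foxj1 came next, with ranges of 85.2 to 116 and 82.7 to 94.1 per kb in shControl and means of 125.5 ± 17.9 and 155.9 ± 23.7 in shMina53. Their library ranges overlapped in both groups, so these neighbours in the order did not differ beyond their spread. Rfx2 followed at 4.36 ± 0.811 and 9.71 ± 2.53 per kb. Its level and that of Ccno (2.58 ± 1.09 and 3.78 ± 3.61 per kb) overlapped in shControl and in shMina53. Trp73 (0.569 ± 0.26 and 1.32 ± 0.508) and Mcidas (0.134 and 0.136) were the lowest. The ranges of Ccno and Trp73 overlapped in shMina53 only, and those of Trp73 and Mcidas in shControl only. Among the other RFX genes, Rfx7, Rfx5 and Rfx1 had 121.2, 72.8 and 62.0 per kb in shControl, all under Rfx4.

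**Figure D2:**
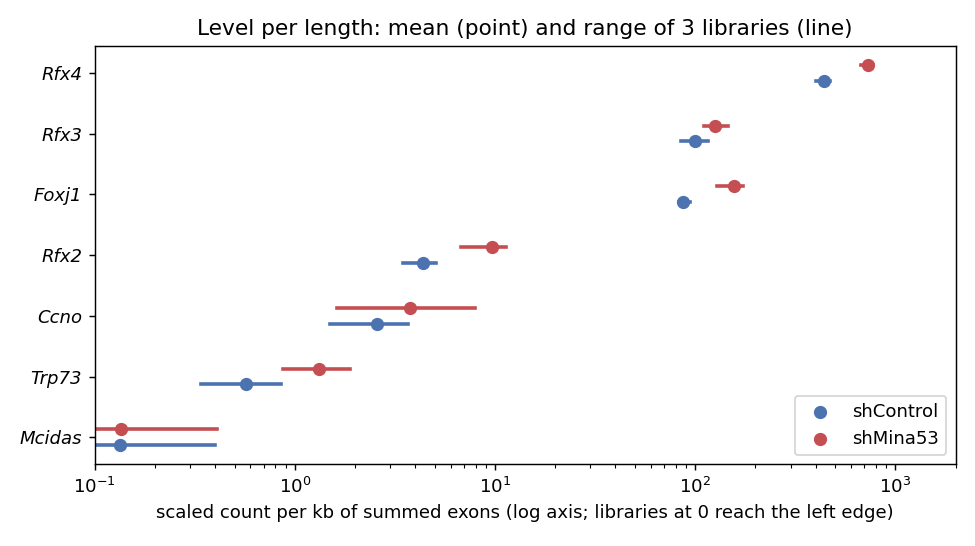
Scaled count per kb of summed exons (horizontal, log axis) for the 7 measured members; points are group means and lines the range of 3 libraries, with libraries at 0 drawn to the left edge. Rfx4 lies above Rfx3 and Foxj1, whose ranges overlap, and Trp73 and Mcidas lie at the bottom.

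Most partners through which the inducers act, and most of the wider RFX family, were not called. E2f4 stood at 716 ± 75.1 scaled counts in the control and 683 ± 47.5 in the knockdown, and E2f5 at 727 ± 119 and 692 ± 51.7 (SD, n = 3 each). Geminin (Gmnn), the relative that binds and restrains multicilin, had 199 ± 18.1 and 177 ± 13.1, and Myb, a proliferation factor that also acts early in multiciliation, 50.1 ± 9.71 and 51.8 ± 3.03. The log2 fold changes of Gmnn, E2f4 and E2f5 were -0.16, -0.07 and -0.06, and with the length trend removed 0.11, 0.10 and 0.17, a change of sign for each. Of 20 partners and relatives listed 18 were measured and 16 tested, of which 1 (6.25%) was called higher and 0 lower. Over all genes the shares were 3.79% and 4.47%. At an unadjusted limma p under 0.05, 4 were higher and 1 lower, and edgeR called 1. The called gene was the DP partner gene Tfdp2, at 453 ± 88 and 673 ± 80.8 (log2 fold change 0.58, SE 0.147; adjusted p = 0.0221, limma). Leaving out shControl 2, or shMina53 2 or 3, ended that call, with adjusted p reaching 0.15. The list's median log2 fold change was 0.08, and that of all genes 0.02. Rfx1 (0.39), Rfx5 (0.33) and Rfx7 (0.12) were not called, with adjusted p = 0.0914, 0.184 and 0.578 (limma). For Rfx1 and Rfx5 all shMina53 libraries lay above all shControl libraries, while for Rfx7 the groups overlapped. Trp63, the other p53 relative, had 1 and 4 reads.

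**Figure D3:**
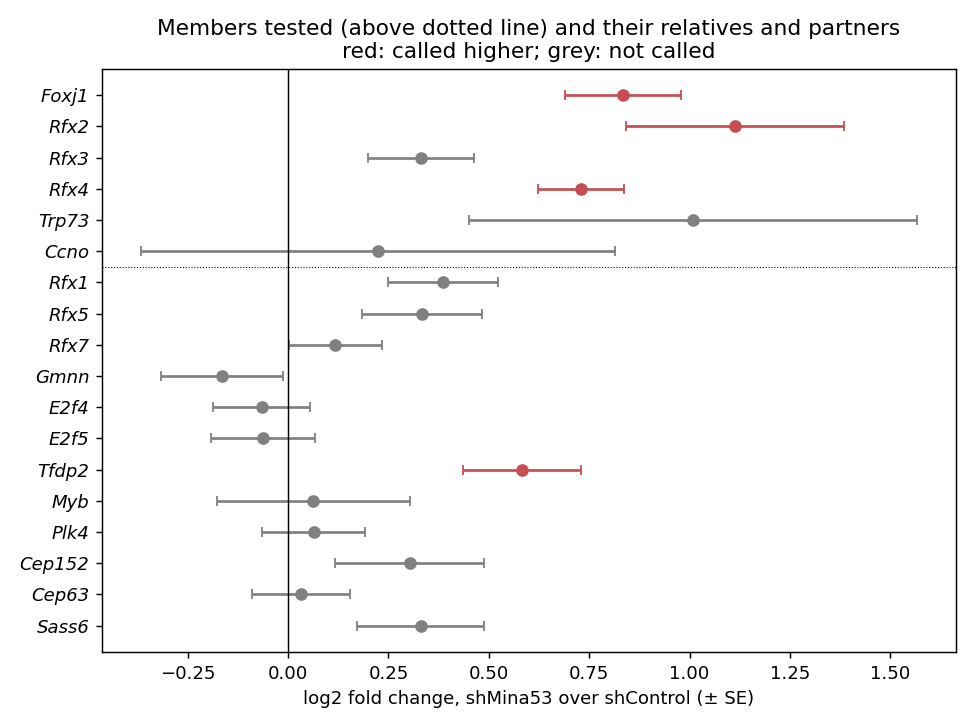
Log2 fold change of shMina53 over shControl with its SE (horizontal) for the 6 members tested, above the dotted line, and for relatives and partners below it; red marks genes called higher. Foxj1, Rfx2 and Rfx4 are the members called and Tfdp2 is the other called gene drawn, and E2f4, E2f5, Gmnn and Myb lie between -0.16 and 0.06; the signs of these 4 flip with the length trend removed.

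Most genes of centriole assembly, which dividing cells use as well, were not called. The log2 fold change was above 0 for 22 of the 30 listed, where it was for 11082 of all 21500 genes. Plk4, the kinase that starts a new centriole, had 459 ± 52.5 and 479 ± 40.8 scaled counts (SD, n = 3 each). Its scaffold gene Cep152 had 182 ± 49.9 and 219 ± 10.5, and Cep63, the parent-centriole relative of Deup1, 403 ± 19.5 and 413 ± 25.2. Sass6, of the cartwheel, had 133 ± 3.75 and 168 ± 10.8 without overlap, but was not called (log2 fold change 0.33; adjusted p = 0.216, limma). Among the 30 genes of this list, 1 (3.33%) passed the test as higher and 0 as lower, where 3.79% and 4.47% of all genes did. At an unadjusted limma p under 0.05, 0 were lower, and edgeR called 1 in all. The median was 0.13. The called gene was Ccp110, the centriole cap protein that holds back cilium growth, at 588 ± 86.4 and 831 ± 33.6 (0.51, SE 0.124; adjusted p = 0.0188, limma), a call that ended on leaving out shControl 2 or any single shMina53 library, with adjusted p reaching 0.0864. Without shControl 3, Cntrob, a gene of daughter centrioles named after its values were seen, was called lower.

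Basal body genes, which anchor a centriole at the membrane, had a median of 0.30. Of 21 listed 20 were tested, with 3 (15%) called higher and 0 lower, where 3.79% and 4.47% of all genes were. At an unadjusted limma p under 0.05, 8 were higher and 0 lower, and edgeR called 3. Among those called by limma were the transition zone gene Cep290, at 214 ± 15.8 and 353 ± 40.5 (0.72 on the log2 scale, SE 0.141; adjusted p = 0.00538, limma) and the satellite and centriole gene Ofd1 (0.59; adjusted p = 0.0224). Cep290 was lost without shMina53 2 (adjusted p = 0.0597). The call of Ofd1 was kept in 2 of the 6 fits without 1 library, with adjusted p up to 0.0977. The difference of long from short genes by library, given with Rfx3, moved with this list and its part was not tested; with the length trend removed the list's median was 0.22, and without shControl 3 it was 0.14.

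Motile cilium genes are the class that FOXJ1 and RFX factors are known to drive, and 65 of the 74 listed were measured. The test was passed by 17 of 59 (28.81%) as higher and by 0 as lower, with a median of 0.78. Over all genes the shares were 3.79% and 4.47%. At an unadjusted limma p under 0.05, 29 were higher and 0 lower. Of the 34 genes that edgeR tested, it called 13 higher and 0 lower, where over all genes it called 823 of 15082 higher and 978 lower. Stk36, a kinase of the cilium's central pair, went from 125 ± 6.57 to 293 ± 16.1 scaled counts (SD, n = 3 each), a log2 fold change of 1.22 (SE 0.147; adjusted p = 0.000208, limma). Wdr78, of an inner dynein arm, had 79.6 ± 16.2 and 198 ± 23.8. Cfap54, of the central pair, had 46.3 ± 7.27 and 121 ± 15.1, and Cfap69 38.4 ± 5.67 and 92.4 ± 16. Cfap44 had 36 and 169 reads (11.3 ± 4.88 and 58.8 ± 5.73 scaled counts). These 5 genes were called without any 1 library, at an adjusted p of up to 0.048. The count for the list was 6 without shMina53 3, 7 without shMina53 2, 9 without shMina53 1 and 10 without shControl 2. Over all genes those called higher fell as well, from 815 to 224, 224, 396 and 324 in these fits. The count for the list was 18 without shControl 1 or shControl 3, where 1383 and 1212 of all genes were called higher. Drc7 had no read in shControl, and with it at its bound against a floor of 3 reads the median was the same. Called genes with 1 to 3 reads in shControl were tested only because of their shMina53 reads, and could hardly have been called lower. Among listed genes with a mean of at least 10 scaled counts, 14 of 34 were called higher and 0 lower, with a median of 0.775. Over all genes with that filter, 796 of 14872 were called higher and 985 lower. The list was written with earlier results known and is no independent support for the change of Foxj1.

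**Figure D4:**
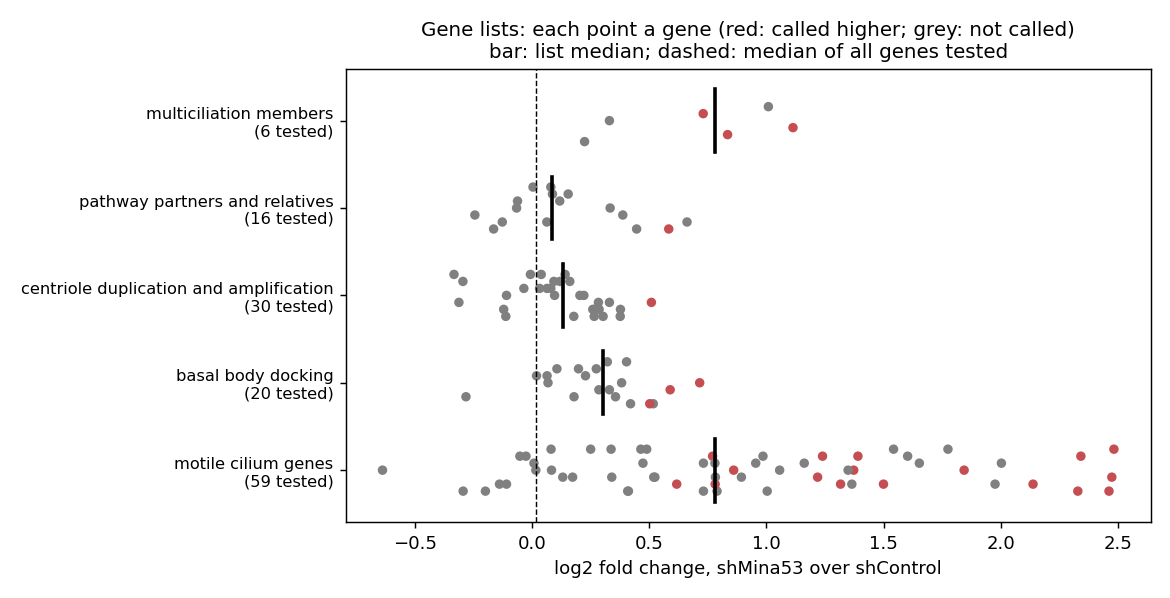
Log2 fold change of shMina53 over shControl (horizontal) for every tested gene of 5 lists; bars are list medians, the dashed line is the median of all genes tested (0.02), and red marks genes called higher. The medians are 0.13 for centriole genes, 0.30 for basal body genes and 0.78 for motile cilium genes.

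The RFX core GTTGCC, shown above before Rfx2, Ccno and Mcidas, was in a window of 17 of the 48 tested motile cilium genes that had one (35.4%). Over all tested genes with a window it was in 12.4% of 12918, and among those called higher in 13.5% of 591. Of the called motile cilium genes it was in 5 of 14, namely Cfap44, Dnah7a, Dnah7b, Mns1 and Tekt1. Dnah7a and Dnah7b are close copies, between which reads may have been split. This is a description of letters, and a difference was not tested.

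Markers of ependymal, choroid plexus and other cells, and of the neural stem cells themselves, were looked at beside these results. Of 14 ependymal markers measured 12 were tested and 2 called higher, Tekt1 and Ak7, which are named after their values were seen and also stand on the motile cilium list. Over all genes 3.79% were called higher and 4.47% lower. Of the 12 markers, 7 were higher and 0 lower at an unadjusted limma p under 0.05, for which no share over all genes is given. Wholly above the control lay 6 of the 12, where 3210 of all 21500 genes did. The median log2 fold change of these markers was 0.665, and that of all genes 0.02. Tekt1 had 14 and 46 reads, and its call ended on leaving out shControl 2 or any single shMina53 library, with adjusted p reaching 0.166. Ak7 had 2 and 22, and its call was lost in the same 4 fits (adjusted p up to 0.109). The summed level of the 14 markers was 1594 to 2054 scaled counts in shControl and 1859 to 1969.98 in shMina53, most of it from Cd24a (-0.10, not called), S100b and Acta2, which other cells express too. Mia was at 4 reads and 0. Choroid plexus markers summed to 41.5 to 59.1 and 47.4 to 60.2 scaled counts, with 2 reads and 1 of its defining gene Ttr and 0 of 6 tested called. At an unadjusted limma p under 0.05 also 0 were, higher or lower. Neuron markers summed to 10411 to 12995 and 14006 to 14830 scaled counts, without overlap, nearly all of it Map2 (called higher), while Tubb3 was called lower. The log2 fold change was above 0 for 1 of these 7 markers, the median was -0.42, and 3 were lower at an unadjusted limma p under 0.05 (Tubb3, Dcx and Syt1). Of 10 neural stem cell markers Slc1a3 was called higher and Sox2, Vim and Hes5 lower, with sums of 140015 to 160253 and 137175 to 142147. Of 8 oligodendrocyte lineage markers Sox10, Pdgfra and Mbp were called lower, with sums of 44150.3 to 47916 and 44274.5 to 52753. Most of each sum came from Olig1 (log2 fold change 0.14) and Olig2 (0.02), neither called, so the sums do not follow the markers called lower. Of 6 microglia markers listed only 2 were measured, and these summed to at most 4.77 and 5.8. The marker genes named here follow their calls. The part of other cells in these results was not tested.

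Over the 6 libraries the patterns most like that of Foxj1, among 12052 other genes with a mean of at least 50 scaled counts, were those of Rtn4ip1 and Slc7a4 (Pearson r = 0.998 each), Ampd2 (0.994), Ndrg4 (0.993) and Fgf1 (0.991). Ampd2 and Ndrg4 were called higher in shMina53, and the other 3 were not called. For Rfx4 they were Srr (0.998), Arhgef28 (0.997), Ccnd1 (0.995), Ppip5k1 and Tmem229b (0.994 each), of which Srr was not called and the other 4 were called higher. All these genes share the 6 libraries and the 2 groups with the member, so r is a description. The lists described above hold none of these 10 genes.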

How the data were processed

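Total RNA of 6 libraries of mouse neural stem cells was sequenced, and the authors deposited 1 table of 25996 genes. Its signal columns, 1 per library and 1 mean per group, hold read counts that the authors divided by 1 factor per library. All values (100%) were whole multiples of 1 read at a tolerance of 0.01, so reads were recovered. The p-value column deposited by the authors was not used. Per the submitters' processing notes, the build was mm10 and the tools were edgeR, DESeq2, StringTie 1.3.4d, UMI-tools, HISAT2 2.0.4 and CASAVA, with no roles given. Strand use in counting is not given in the sources used here.

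limma 3.58.1 (R 4.3.3; trend and robust) was fitted to log2(scaled count + 1) across all 21500 genes with a mean of at least 1, without covariates. edgeR 4.0.16 and DESeq2 1.42.0 were run on recovered reads. Scripts were tested on simulated data. Lengths and positions come from GENCODE M21 (mm10), windows from RefSeq GRCm38.p6. Members and lists were chosen with earlier results of these data known. Named genes are the members, their listed relatives, Riox2, up to 5 called genes per list with the smallest adjusted p, and the 5 patterns most like Foxj1 and the most abundant member; others are marked in place, and 1 gene that the rule selects is not reported here. Endothelial (3 tested) and dividing cell (6 tested) markers gave 0 calls by limma; at an unadjusted p under 0.05, 0 and 2 were lower and 0 higher. Alternatives covered the pseudocount, the filter, the scaling, the test, the length trend, the replicate number and each library.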

Additional observations from a re-analysis of the deposited data

How the results depend on the processing

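The 1776 calls over all genes (815 higher, 961 lower) became 32 by limma without its trend and robust steps, which called 0 members and 0 partners, 0 centriole, 0 basal body and 1 motile cilium gene; the cause was not tested. Fold changes of Foxj1 (0.83), Rfx2 (1.11) and Rfx4 (0.73) were the same there, with adjusted p of 0.102, 0.137 and 0.093. The replicate number as a block (replicate block) gave 1178 calls, 0 partners and 11 motile cilium genes, and kept the calls of the 3 members, with adjusted p of 0.0582 for Tfdp2. Deviations of same-numbered libraries from their group means had r = -0.145, 0.107 and 0.0198 over 12053 genes. The other pairs had r from -0.15 to 0.0802. With 3 libraries in a group these values cannot decide whether a number marks a shared culture or day. DESeq2 called 11 motile cilium genes; genes to which it gave no adjusted p, among them Tekt1 and Ak7, are outside that count and not lost calls. Upper quartile scaling moved the split of calls to 1056 higher and 740 lower; with the length trend removed it was 1201 and 1016, with a median over all genes of 0.08. The 3 members were called higher under both and under TMM.

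Leaving out each library in turn gave 497 to 2794 calls in all, 2 to 4 members, 0 to 1 partners, 0 to 2 centriole genes, 0 to 7 basal body genes and 6 to 18 motile cilium genes. Ccno ran from -0.44 to 0.58 on the log2 scale and was -0.07 without shControl 2. In these 6 fits Foxj1 ran from 0.76 to 0.97, Rfx4 from 0.67 to 0.79, Rfx2 from 0.97 to 1.35 and Rfx3 from 0.22 to 0.44. By longest transcript 5 of 7 members kept their place per length, since Rfx3 and Foxj1 changed places. Depth limits Trp73, Ccno and Mcidas.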
